A study of Mus musculus with 16 samples.

Results

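Potassium channel genes were described here as a family. They were the genes whose symbol, given alone for a probe set in the array's annotation, begins with Kcn, a lower-case letter and a digit, apart from Kcne2. There were 63 of them among 17097 genes named alone by a probe set, and the 63 were measured by 113 probe sets. Where a gene had several probe sets, the one highest on average over the 16 arrays stood for it. Of the 63 symbols, 62 fell into 15 subfamilies by the letter after Kcn, with 15 genes in Kcnj, 9 in Kcnk, 7 in Kcna and 6 in Kcnh, 4 each in Kcne and Kcnn, 3 each in Kcnc, Kcnq and Kcns, 2 each in Kcnd and Kcnv, and 1 each in Kcnf, Kcng, Kcnt and Kcnu. The remaining symbol, Kcnq1ot1, is a noncoding RNA transcribed antisense to Kcnq1; it met the rule and was described apart. Other genes of the family were not analysed here.

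The samples were striatal total RNA from male mice, 7 to 8 weeks old, of the inbred strains A/J (A/JOlaHsd) and DBA/2J (DBA/2JRccHsd), with 1 array per sample and 4 biological replicates in each of 4 groups. Groups were taken from the sample titles. The description label is one and the same for replicates 2, 3 and 4 of the DBA/2J risperidone group, and A/J control replicates 1 and 2 share a number in theirs, while no arrays held identical values (0 pairs). Risperidone, an antipsychotic drug and antagonist of dopamine D2 and serotonin receptors, was injected intraperitoneally at 1 mg/kg once a day for 3 days in 8 of the mice, 4 per strain. The other 8 mice are labelled untreated while the protocol common to all samples names saline injections, and they are called control mice here. The study addressed the motor side effects of antipsychotics, for which the strains were compared. All mice were males of a single age and had a single dose and time, so no other sex, age, dose or time is covered. Values are log2 levels, and differences are differences of group means on the log2 scale. The adjusted p is limma's with Benjamini-Hochberg adjustment over 45037 probe sets, and a gene was called where it was under 0.05.

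Potassium channels let potassium ions leave or enter the cell, set the resting potential, end action potentials and shape the firing of neurons. Voltage-gated channels (Kcna to Kcnd, Kcnh and Kcnq) open on depolarisation, inward rectifiers (Kcnj) hold the membrane near rest, 2-pore domain channels (Kcnk) carry leak current, and Kcnn and Kcnt channels open with internal calcium or sodium. Subunits of Kcne, Kcnf, Kcng, Kcns and Kcnv join other channels and alter them. In the striatum, inward rectifiers keep projection neurons at a negative resting potential, and voltage-gated channels set when they begin to fire.

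The sequences shown are the promoters of the only channel gene that differed by the test, Kcnk1, and of Kcnh5 and Kcnh7, which had the largest differences between risperidone and control DBA/2J mice. Each is the 300-base RefSeq window from 250 bases before to 50 bases after the annotated start, on the strand of the gene, in GRCm38.p6. They lie at chr8:125994852-125995151 on the + strand for Kcnk1, chr12:75177283-75177582 on the - strand for Kcnh5 and chr2:63184238-63184537 on the - strand for Kcnh7. The reference is another strain than either used here. Capitals mark GC boxes (GGGCGG, or CCGCCC where it lies on the opposite strand).
Kcnk1: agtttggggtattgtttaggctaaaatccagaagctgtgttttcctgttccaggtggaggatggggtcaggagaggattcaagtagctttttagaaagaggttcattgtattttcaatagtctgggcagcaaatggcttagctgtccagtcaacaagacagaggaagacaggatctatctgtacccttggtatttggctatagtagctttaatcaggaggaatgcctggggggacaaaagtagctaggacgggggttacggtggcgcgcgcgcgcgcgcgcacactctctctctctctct
Kcnh5: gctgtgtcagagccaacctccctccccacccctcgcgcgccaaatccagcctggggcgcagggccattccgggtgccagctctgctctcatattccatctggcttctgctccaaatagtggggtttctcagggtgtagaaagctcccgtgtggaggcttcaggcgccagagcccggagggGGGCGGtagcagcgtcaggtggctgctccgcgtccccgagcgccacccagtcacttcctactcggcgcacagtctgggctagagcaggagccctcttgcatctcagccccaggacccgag
Kcnh7: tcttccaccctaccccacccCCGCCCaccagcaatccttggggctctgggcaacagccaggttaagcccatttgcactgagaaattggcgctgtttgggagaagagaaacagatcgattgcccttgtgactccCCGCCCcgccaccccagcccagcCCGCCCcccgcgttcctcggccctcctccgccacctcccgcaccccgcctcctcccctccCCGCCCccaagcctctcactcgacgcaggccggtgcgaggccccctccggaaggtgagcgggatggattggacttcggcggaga

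The Kcnk1 window held no GC box, the Kcnh5 window held 1 (from position -70 to -65) and the Kcnh7 window held 4. G and C made up 49.0%, 65.3% and 67.7% of the bases in Kcnk1, Kcnh5 and Kcnh7. A RefSeq promoter was in hand for 47 of the 63 genes, with 62 windows in all. The median share of G and C was 58.2% in these 62 windows and 52.7% in 32851 promoters of the same length. A GC box on either strand was found in 48.4% of the 62 windows and in 35.7% of the 32851 promoters. Also on both strands, the Egr motif (GCGNGGGCG) was in 3.23% of the windows of channel genes against 5.55% of all, the AP-1 motif (TGANTCA) in 3.23% against 7.81%, the TATA box (TATAAA) in 6.45% against 13.6%, and the cAMP response element (TGACGTCA) in 0% against 1.79%. None of these 4 motifs was in the Kcnk1, Kcnh5 or Kcnh7 window. The part of base composition in the motif shares was not tested. Egr and GC box matches can overlap. These matches are letters in a window and describe no binding.

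Array medians lay between 5.66 and 5.71, and 41 of the 63 genes had a mean above the median probe set level of 5.67. Of the striatal projection neuron markers, Drd2 was below that level on all arrays (3.62 to 4.90), Drd1 lay at 5.85 to 6.51, Ppp1r1b at 5.99 to 7.57 and Penk at 6.13 to 7.98. The mean of 9 cortex markers was 8.14 to 8.49 and that of 11 thalamus markers 5.64 to 7.01. Markers that tell the strains apart placed the A/J control arrays at -2.30% to 0.993% of the way to DBA/2J and the DBA/2J arrays at 87.6% to 103%. Among A/J risperidone arrays they placed replicate 3 at 0.584% but replicates 1, 2 and 4 at 27.9%, 36.2% and 39.1%; none of these markers is a channel gene. DBA/2J control replicate 4 correlated least with the other arrays (at 0.970 to 0.979). Replicates 1, 2 and 4 of the A/J risperidone group are called the 3 intermediate arrays below. Differences that move much without these arrays are given both ways beside the results; without the 3 the A/J risperidone group is 1 array, replicate 3, assumed to vary like the other groups. In bulk tissue, fewer cells of a type and less RNA per cell cannot be told apart.

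**Figure D1:**
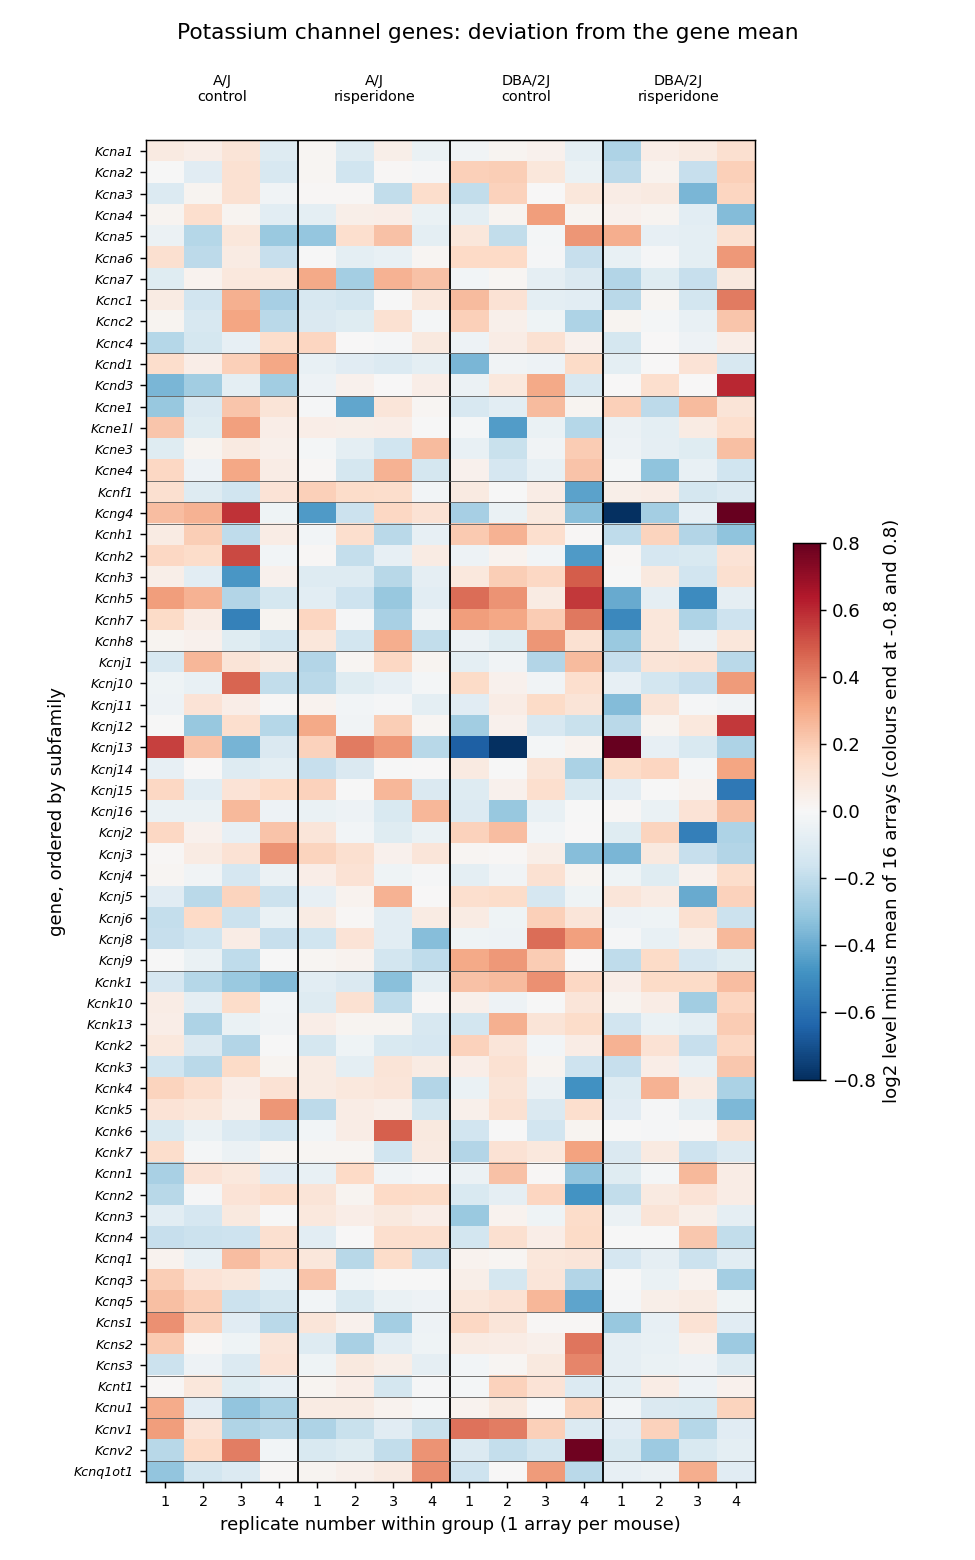
The 63 genes (rows, by subfamily) in the 16 arrays (columns, by group and replicate number), each cell being the log2 level minus the gene's mean over 16 arrays, with colours ending at -0.8 and 0.8. Kcnk1 is below its mean in the A/J arrays and above it in the DBA/2J arrays, and Kcnh5 and Kcnh7 are above their means in the DBA/2J control arrays.

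The strain comparison in control mice asked which channel genes differ between A/J and DBA/2J without the drug. Kcnk1, which encodes the 2-pore domain leak channel TWIK-1, was higher in DBA/2J. It lay at 8.69, 8.60, 8.53 and 8.48 in the 4 A/J control arrays and at 9.06, 9.08, 9.19 and 8.99 in the 4 DBA/2J control arrays, a difference of 0.51 ± 0.08 (SE, n = 4 per group), or 1.42-fold, with an adjusted p of 0.000996 by limma and a 95% interval of 0.33 to 0.68. Every DBA/2J control array was above every A/J control array. The other probe set of Kcnk1 differed by 0.38 in the same direction (limma, adjusted p = 0.0183). Whether sequence variants between the strains lie under the probes of either was not checked. Of the 63 channel genes, 1 was called in this comparison, while 3.46% of all genes were.

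In the risperidone arrays Kcnk1 was at 8.74, 8.71, 8.49 and 8.75 in A/J and at 8.88, 8.98, 8.98 and 9.07 in DBA/2J. All 8 A/J arrays were below all 8 DBA/2J arrays. The difference among risperidone mice was 0.30 ± 0.08 (SE; limma, adjusted p = 0.112), and it did not pass. The low A/J array of this group, at 8.49, was replicate 3, whose strain markers lay at the A/J level, and the arrays at 8.71 to 8.75 were the 3 whose markers lay between the strains. Without those 3 arrays the difference was 0.49 (adjusted p = 0.190). The risperidone difference was 0.10 in A/J and -0.10 in DBA/2J, and neither passed (adjusted p = 0.982 and 0.662); the difference between these effects, -0.20, had a 95% interval of -0.44 to 0.04. Without the 3 arrays the A/J drug difference turned to -0.09 and the difference between the effects was -0.02. The other probe set had lower means after risperidone in both strains, by -0.075 in A/J and -0.22 in DBA/2J. Neither passed (limma, adjusted p = 0.992 and 0.390).

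**Figure D2:**
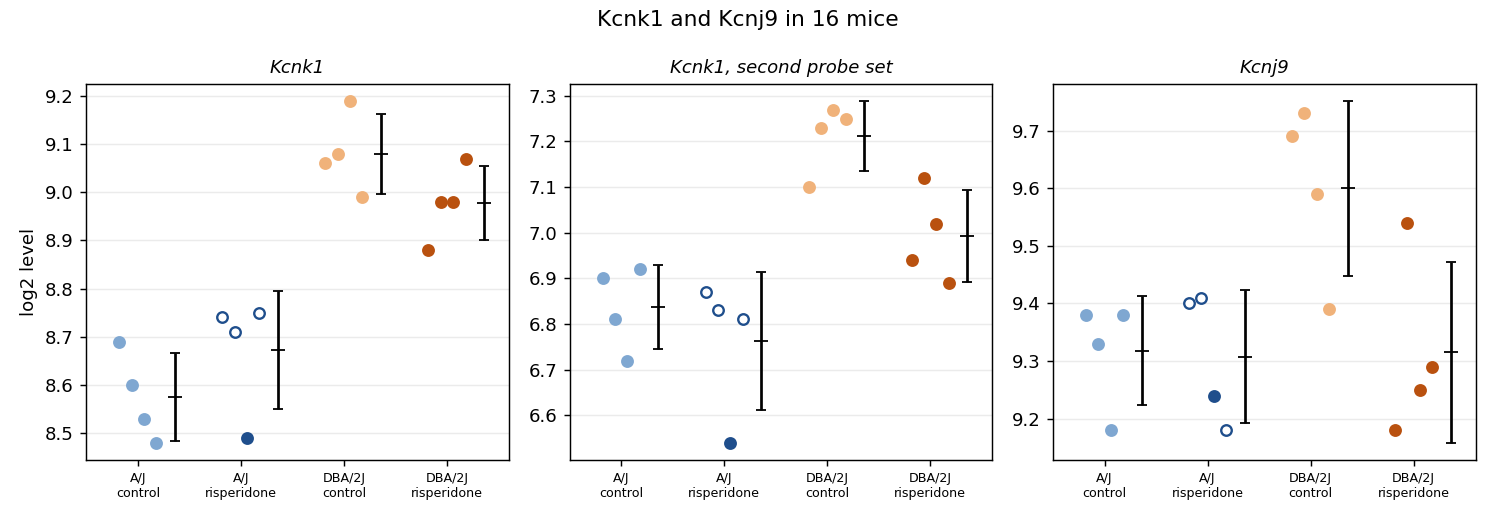
Log2 level of Kcnk1, of the other Kcnk1 probe set and of Kcnj9 in the 16 arrays by group; bars are the mean ± SD of 4 arrays, and open points are the 3 A/J risperidone arrays whose strain markers lay between the strains. In Kcnk1 all 8 DBA/2J arrays (8.88 to 9.19) are above all 8 A/J arrays (8.48 to 8.75), while in Kcnj9 the DBA/2J control arrays (9.39 to 9.73) are the highest group.

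Other tissue markers also differed between the strains in control mice. Oligodendrocyte markers were lower in DBA/2J in 9 of 9 (2 called), with mean levels of 8.32 to 9.00 in A/J and 7.81 to 8.21 in DBA/2J, and thalamus markers were lower in 11 of 11 (2 called), at 5.71 to 7.01 against 5.64 to 5.82. Microglia markers were lower in 7 of 7 (2 called), and cortex markers were higher in 5 of 9 (1 called). Markers of the projection neuron, in general the main cell type of the striatum, were lower in DBA/2J in 6 of 9 (2 called, median -0.165). Their mean levels were 6.53 to 6.99 in A/J and 6.36 to 6.64 in DBA/2J. The 2 called were Ppp1r1b (-0.61, adjusted p = 0.0442 by limma), which encodes DARPP-32, and the phosphodiesterase gene Pde10a (-0.43, 0.0247). Drd2 of this list lay below the median probe set level on all arrays, and the cell make-up of the samples was not tested. With the mean levels of the cortex and thalamus markers as covariates, an alternative added after seeing the data, the Kcnk1 difference was 0.50 ± 0.13 (SE) and its adjusted p was 0.157 by limma, so it was not called. The part of the oligodendrocyte, microglia and projection neuron markers in it was not tested.

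Of the other channel genes, 9 had an unadjusted p under 0.05 between control mice and none of them was called by limma. Counted with Kcnk1, that is 10 of 63, or 15.9%, beside 16.5% of all genes. The groups did not overlap in 4 of 63 (Kcnh3, Kcnh7, Kcnj9 and Kcnk1), or 6.35%, beside 9.13% of all genes. Kcnh3, an ELK-type voltage-gated channel of forebrain neurons, was at 6.38, 6.25, 5.87 and 6.37 in A/J and 6.42, 6.53, 6.50 and 6.82 in DBA/2J. Its difference was 0.35 ± 0.11 (SE, adjusted p = 0.0943 by limma), and its other 2 probe sets gave 0.0050 and 0.22. Over the alternatives run the Kcnh3 difference was 0.15 to 0.40. Kcnj9, which encodes GIRK3, a subunit of the inward rectifiers that G proteins open, was at 9.38, 9.33, 9.18 and 9.38 in A/J and 9.69, 9.73, 9.59 and 9.39 in DBA/2J. The lowest of these DBA/2J values belonged to replicate 4. The difference was 0.28 ± 0.10 (SE; adjusted p = 0.123) and, without DBA/2J control replicate 4, 0.35 (adjusted p = 0.0434), which passed. All 4 Kcnj9 probe sets were higher in DBA/2J, by 0.15 to 0.42.

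Kcne1l, an auxiliary subunit gene, was lower in DBA/2J, with overlapping groups (difference -0.31, adjusted p = 0.104 by limma). It lay at 4.15, 3.72, 4.11 and 3.94 in DBA/2J and at 4.39, 4.07, 4.49 and 4.22 in A/J. These values are below the median probe set level of 5.67. Over the alternatives run the Kcne1l difference was -0.39 to -0.03. Kcnh2, the ERG channel gene known from the heart, was at 6.23, 6.30, 6.25 and 5.82 against 6.44, 6.42, 6.80 and 6.25, a difference of -0.33 (adjusted p = 0.149). The Kcnh2 difference was -0.22 without DBA/2J control replicate 4 (adjusted p = 0.344). The A-type channel genes Kcnd1 and Kcnd3 lay apart in opposite directions, at -0.24 and 0.30 (adjusted p = 0.19 and 0.193). That of Kcnd1 was -0.15 without DBA/2J control replicate 1. Kcnd3 has 4 probe sets that did not act alike: another of them differed by 0.41 (adjusted p = 0.0083), and the remaining 2 by 0.0075 and -0.03. Kcnj8, a pore subunit of channels closed by ATP, was at 0.29 (adjusted p = 0.206). For the whole family, 38 of 63 genes were higher and 24 of 63 lower in DBA/2J, beside 49.2% and 50.2% of all genes. The median difference was 0.04 beside -0.0025 over all genes.

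In risperidone mice 0 of 63 channel genes were called between strains by limma (0.643% of all genes were). An unadjusted p under 0.05 was found for 5, or 7.94%, beside 8.86% of all genes. These were Kcnk1, Kcnj3 (-0.28; adjusted p = 0.366), Kcnj14 (0.23; 0.403), Kcna7 (-0.24; 0.491) and the stretch-sensitive leak channel gene Kcnk2 (0.20; 0.529). Kcna7 differed by -0.39 without the 3 intermediate A/J arrays (adjusted p = 0.51). Kcnj3 differed by -0.15 without 5 arrays in doubt, which are those 3, DBA/2J control replicate 4 and DBA/2J risperidone replicate 1. Kcnj3 encodes a GIRK subunit that pairs with those of Kcnj6 and Kcnj9. Kcnk1 was the only member whose groups did not overlap (1.59% of members, beside 7.86% of all genes). Here 25 of 63 genes were higher and 38 of 63 lower in DBA/2J, beside 54.9% and 44.3% of all genes. The median was -0.02 beside 0.02 over all genes. Without the 3 arrays 28 were higher and 35 lower, and 15 of the 63 changed sign.

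The drug comparison in DBA/2J asked which channel genes differ after risperidone. By limma 0 of 63 were called, and 0.0526% of all genes (9 genes) were. An unadjusted p under 0.05 was found for 7, or 11.1%, beside 10.2% of all genes, and all 7 had lower means in risperidone mice. They were Kcnh5, Kcnh7, Kcnh1, Kcnj9, Kcns2, Kcnj2 and Kcnv1. The groups did not overlap for Kcnh5, Kcnh7, Kcnq1 and Kcns3 (6.35% of members, beside 4.31% of all genes).

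The Kcnh genes encode voltage-gated channels of the EAG (Kcnh1, Kcnh5), ERG (Kcnh2, Kcnh7) and ELK (Kcnh3, Kcnh8) types. Kcnh5 was at 6.13, 6.04, 5.75 and 6.25 in DBA/2J control arrays and at 5.28, 5.61, 5.18 and 5.61 in risperidone arrays. It has 1 probe set, and these risperidone values lie below the median probe set level of 5.67. All 4 risperidone arrays were below all 4 controls, and the difference was -0.62 ± 0.14 (SE, n = 4 per group; 1.54-fold lower), with an adjusted p of 0.16 by limma and a 95% interval of -0.91 to -0.33. Kcnh7 was at 8.07, 8.05, 7.94 and 8.16 in controls and at 7.22, 7.83, 7.49 and 7.57 after risperidone. Here too no risperidone array reached a control array, and the difference was -0.53 ± 0.14 (SE; adjusted p = 0.213; 95% interval -0.82 to -0.23). For groups that do not overlap, the exact two-sided permutation test can give only p = 0.0286, the smallest that 4 against 4 arrays allow. It therefore adds nothing to the lack of overlap. In A/J, Kcnk6, Kcnd1, Kcnd3 and Kcnq1ot1 had the same exact p. Kcnh5 and Kcnh7 were picked for the smallest limma p of the channel genes here.

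Kcnh1 was at 8.01, 8.08, 7.94 and 7.81 in DBA/2J controls and 7.60, 7.98, 7.57 and 7.48 after risperidone, with replicate 2 within the control range (difference -0.30; adjusted p = 0.37; the other probe set -0.25). Kcnh3 was at 6.33, 6.41, 6.18 and 6.46 after risperidone, a difference of -0.22 (adjusted p = 0.483), and its other probe sets gave 0.03 and -0.18. Leaving out DBA/2J control replicate 4 gave -0.14 for Kcnh3. Kcnh8 was at 4.80, 4.75, 5.20 and 4.97 in controls and 4.55, 4.94, 4.80 and 4.94 after risperidone, a difference of -0.12. Kcnh2 had the opposite sign, 0.09, at 6.28, 6.14, 6.15 and 6.38 after risperidone. The median over the 6 genes was -0.26, with 5 of 6 lower, beside -0.04 over all 63 channel genes, of which 24 were higher and 38 lower, and 0.01 over all genes, of which 52.5% were higher and 46.9% lower. The mean of the 6 Kcnh genes was 6.60 to 6.64 in the DBA/2J controls and 6.21 to 6.48 after risperidone, so the groups did not overlap. This was not particular to Kcnh. Of the Kcnv genes 2 of 2 were lower (median -0.26), at means of 5.175 to 5.49 in controls and 4.98 to 5.1 after risperidone. Of the Kcns genes 3 of 3 were lower (median -0.18), at 6.263 to 6.497 against 6.06 to 6.26. Their groups did not overlap either, and no share over all genes was computed for such means. Without DBA/2J control replicate 4 all 6 Kcnh genes were lower (median -0.25, Kcnh2 at -0.02), as were 46 of the 63 channel genes.

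In A/J 4 of 6 Kcnh genes were lower after risperidone, with a median of -0.04. These values rest on the 3 arrays whose strain markers lay between the strains: with replicate 3 alone, 5 of 6 were lower and the median was -0.21. Kcnh5 was at 6.02, 5.96, 5.45 and 5.54 in A/J controls and 5.60, 5.52, 5.38 and 5.60 after risperidone (-0.22; adjusted p = 0.957), and Kcnh7 was at 7.89, 7.80, 7.20 and 7.76 in controls and 7.91, 7.73, 7.48 and 7.71 after risperidone (0.04; 0.997). Without the 3 arrays the differences were -0.36 for Kcnh5 and -0.18 for Kcnh7 (adjusted p = 0.999 and 0.999). Kcnh1 was at 7.87, 8.00, 7.60 and 7.86 in A/J controls and 7.78, 7.94, 7.59 and 7.74 after risperidone (-0.07; without the 3 arrays -0.24). The A/J control arrays covered a wider range than the DBA/2J controls, and replicate 3 was the lowest of them for both genes. The difference between the drug effects of the 2 strains was -0.57 ± 0.20 (SE) for Kcnh7 and -0.41 ± 0.20 for Kcnh5, and neither passed (limma, adjusted p = 0.435 and 0.546). These differences were -0.34 and -0.26 without the 3 intermediate A/J arrays, and -0.21 and -0.14 without the 5 arrays in doubt. The DBA/2J control arrays enter the drug comparison and the strain comparison alike. In the strain comparison 5 of 6 Kcnh genes were higher in DBA/2J controls, with Kcnh7 at 0.39 and Kcnh5 at 0.30 (adjusted p = 0.146 and 0.267), and after risperidone 2 of 6 were higher, with Kcnh7 at -0.18 and Kcnh5 at -0.10. The Kcnh7 difference between controls was 0.24 without A/J control replicate 3. Without the 3 intermediate arrays 5 of 6 were higher after risperidone, with Kcnh7 at 0.05 and Kcnh5 at 0.04.

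Cortex markers were lower in 6 of 9 in DBA/2J after risperidone (0 called, median -0.11; mean levels 8.35 to 8.49 in controls and 8.17 to 8.43 after the drug), and striatal projection neuron markers were higher in 6 of 9 (0 called, median 0.24; 6.36 to 6.64 against 6.61 to 6.88). With the cortex and thalamus marker means as covariates the difference was -0.57 for Kcnh5 and -0.38 for Kcnh7. Without DBA/2J control replicate 4, which held the highest value of its group for both genes, it was -0.55 and -0.49. The part of the projection neuron markers was not tested.

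**Figure D3:**
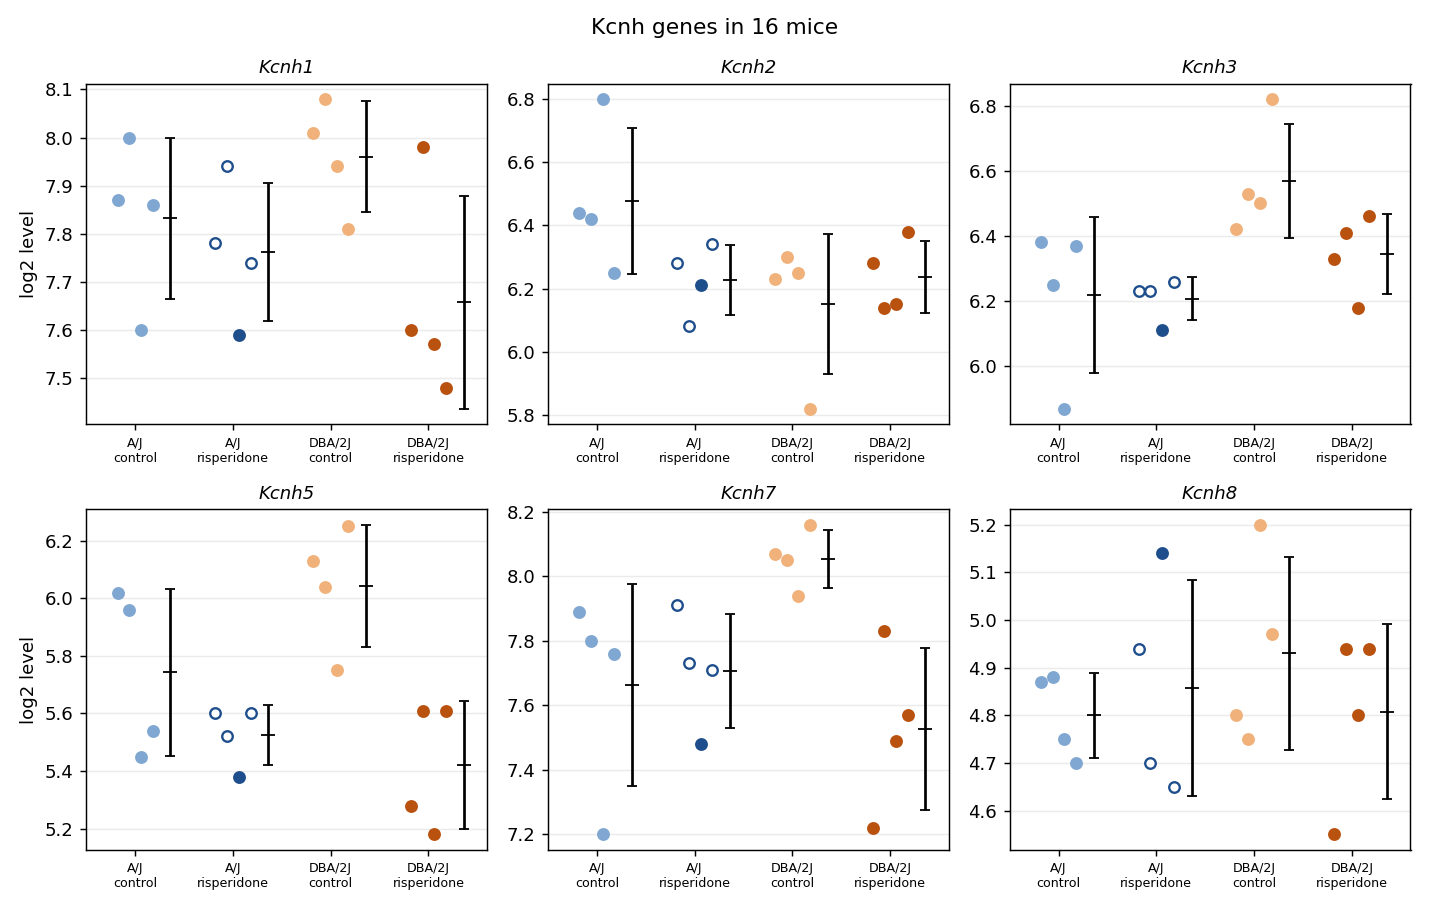
Log2 level of the 6 Kcnh genes in the 16 arrays by group; bars are the mean ± SD of 4 arrays, and open points are the 3 A/J risperidone arrays whose strain markers lay between the strains. For Kcnh5 and Kcnh7 the DBA/2J risperidone arrays (5.18 to 5.61 and 7.22 to 7.83) lie below the DBA/2J control arrays (5.75 to 6.25 and 7.94 to 8.16), and the A/J groups overlap.

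Among inward rectifiers in DBA/2J, Kcnj9 was at 9.69, 9.73, 9.59 and 9.39 in controls and 9.18, 9.54, 9.25 and 9.29 after risperidone. Replicate 2 of the risperidone group lay within the control range, and the difference was -0.28 ± 0.10 (SE; adjusted p = 0.318). The other 3 Kcnj9 probe sets were lower too, with differences of -0.20 to -0.26. After risperidone Kcnj9 was at 9.31 ± 0.16 (SD) in DBA/2J, beside 9.31 ± 0.12 in A/J. The 4 A/J risperidone arrays of Kcnj9 were at 9.40, 9.41, 9.24 and 9.18. Kcnj2, the classical inward rectifier of projection neurons, was at 5.87, 5.93, 5.66 and 5.69 in controls and 5.59, 5.86, 5.14 and 5.44 after risperidone, with overlapping groups (-0.28; adjusted p = 0.429). Its lowest array was risperidone replicate 3, without which the difference was -0.16. In A/J Kcnj2 was at 5.85, 5.72, 5.62 and 5.91 in controls and 5.78, 5.66, 5.59 and 5.63 after risperidone (-0.11). Kcnj12, which encodes a channel close to that of Kcnj2, had higher means after the drug in both strains, 0.22 in A/J and 0.25 in DBA/2J (adjusted p = 0.953 and 0.521), with arrays at 5.75, 5.45, 5.89 and 5.53 in controls and 6.06, 5.73, 5.95 and 5.77 after risperidone in A/J and 5.48, 5.79, 5.63 and 5.58 in controls and 5.54, 5.78, 5.84 and 6.32 after risperidone in DBA/2J. The groups overlapped in both strains, and without DBA/2J risperidone replicate 4 the DBA/2J difference was 0.10.

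Kcnj13, a channel of choroid plexus and other epithelia, had the largest positive difference in DBA/2J, 0.47 ± 0.24 (SE; adjusted p = 0.499). Its controls were at 4.90, 4.76, 5.54 and 5.58 and its risperidone arrays at 6.42, 5.49, 5.43 and 5.31. Without replicate 1, the high array, the difference was 0.21. That array also had the highest choroid plexus and ependyma mean of all arrays (5.73) and the highest Ttr, the choroid plexus transthyretin gene (11.97). That list was higher in 10 of 11 markers in DBA/2J after risperidone (0 called), with mean levels of 4.58 to 4.84 in controls and 4.73 to 5.73 after it.

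The modifier subunit genes Kcns2 and Kcnv1 had lower means in risperidone mice of both strains. Kcns2 was at 7.63, 7.43, 7.39 and 7.52 in A/J controls and 7.32, 7.16, 7.34 and 7.39 after risperidone (-0.19; adjusted p = 0.938). In DBA/2J it was at 7.49, 7.48, 7.46 and 7.85 in controls and 7.35, 7.36, 7.46 and 7.13 after risperidone (-0.24; 0.4), and the control at 7.85 was replicate 4, without which the difference was -0.15 (adjusted p = 0.669). In each strain the highest risperidone array equalled the lowest control array. Kcnv1 was at 7.71, 7.49, 7.14 and 7.16 in controls and 7.13, 7.20, 7.29 and 7.20 after risperidone in A/J (-0.17; adjusted p = 0.978) and at 7.81, 7.79, 7.57 and 7.27 in controls and 7.29, 7.56, 7.15 and 7.29 after risperidone in DBA/2J (-0.29; 0.46). In A/J the Kcnv1 difference was -0.09 without the 3 intermediate arrays and -0.06 without control replicate 1. Its groups overlapped in both strains. Its other 2 probe sets gave -0.25 and -0.50 in DBA/2J but 0.02 and -0.15 in A/J, so they did not act alike there. Kcns3 (-0.18) and Kcnq1 (-0.17), whose DBA/2J groups did not overlap, had adjusted p of 0.48 and 0.507. The Kcns3 difference was -0.09 without DBA/2J control replicate 4.

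In A/J, too, 0 of 63 channel genes were called after risperidone by limma, and 0% of all genes were. An unadjusted p under 0.05 was found for 5, or 7.94%, beside 4.87% of all genes. These were Kcnk6, Kcnd1, Kcnd3, Kcnq1ot1 and Kcnk5, and the groups of the first 4 did not overlap (6.35% of members, beside 4.31% of all genes). Oligodendrocyte markers were lower after risperidone in A/J in 9 of 9 and projection neuron markers in 7 of 9. Blood markers (hemoglobin genes and Alas2) were higher in 4 of 4 (median 0.56), at mean levels of 8.95 to 9.47 in controls and 9.625 to 9.87 after it. Of these markers 0 were called, and their part in the channel gene differences was not tested. Kcnk6, a leak channel gene, was at 4.33, 4.40, 4.34 and 4.30 in controls and 4.43, 4.51, 4.93 and 4.53 after risperidone (0.26 ± 0.09 SE; adjusted p = 0.787). The array at 4.93 was replicate 3: without it the difference was 0.15, and without the 3 arrays whose strain markers lay between the strains it was 0.59 (adjusted p = 0.542). Kcnd1 was at 5.89, 5.80, 5.94 and 6.06 in controls and 5.69, 5.66, 5.64 and 5.67 after risperidone (-0.26 ± 0.10 SE; adjusted p = 0.808), so the risperidone arrays lay close together below the controls. Its other 2 probe sets gave 0.02 and -0.0075.

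Kcnd3 was at 7.31, 7.40, 7.60 and 7.40 in A/J controls and 7.64, 7.71, 7.68 and 7.73 after risperidone (0.26; adjusted p = 0.891), beside 7.63, 7.76, 7.98 and 7.55 in DBA/2J controls and 7.68, 7.81, 7.68 and 8.28 in DBA/2J risperidone arrays. Its 4 probe sets gave 0.08 to 0.41 in A/J. The noncoding Kcnq1ot1 was at 7.09, 7.26, 7.30 and 7.42 in controls and 7.43, 7.45, 7.48 and 7.78 after risperidone in A/J (0.27; adjusted p = 0.896), and at 7.24, 7.41, 7.75 and 7.19 in controls and 7.34, 7.36, 7.70 and 7.32 after risperidone in DBA/2J, where the groups overlapped. It has 6 probe sets, all higher in A/J risperidone arrays (0.11 to 0.27) and all higher in DBA/2J than in A/J controls (0.08 to 0.39, 1 of them at an adjusted p of 0.0150). In DBA/2J after risperidone the 6 went both ways, with 3 lower and 3 higher (-0.26 to 0.21). Kcnq1, to which it is antisense, was at 4.29 to 4.76 over the 16 arrays and differed by -0.14 in A/J. Whether the array probes keep the 2 strands apart was not examined. Kcnk5, an acid-sensitive leak channel gene, was at 4.23, 4.21, 4.16 and 4.47 in controls and 3.91, 4.18, 4.16 and 3.98 after risperidone in A/J (-0.21) and at 4.16, 4.24, 4.00 and 4.25 in controls and 4.03, 4.11, 4.04 and 3.76 after risperidone in DBA/2J (-0.18), with overlapping groups in both strains. The A/J difference of Kcnk5 was -0.11 without the 3 intermediate arrays, and its DBA/2J difference was -0.10 without risperidone replicate 4. Kcnh2 was at 6.44, 6.42, 6.80 and 6.25 in A/J controls and 6.28, 6.08, 6.21 and 6.34 after risperidone, a difference of -0.25 (adjusted p = 0.906). The control at 6.80 was replicate 3, without which the difference was -0.14. Over the family 24 of 63 genes were higher and 39 of 63 lower, beside 45.5% and 53.6% of all genes, and the median was -0.01 in both. Without the 3 intermediate arrays 32 were higher and 31 lower, 16 of the 63 changed sign and 1, Kcnk6, had an unadjusted p under 0.05 (1.59%, beside 2.99% of all genes).

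Over both strains, the mean of the 2 drug effects was not called for any channel gene (0 of 63 by limma, 0.0409% of all genes). An unadjusted p under 0.05 was found for 12, or 19.0%, beside 6.62% of all genes, with 9 lower and 3 higher. The lowest p belonged to Kcnh5 (-0.42 ± 0.10 SE; adjusted p = 0.272), which was lower in both strains. Kcns2 (-0.22), Kcnk5 (-0.19), Kcnv1 (-0.23), Kcnh7 (-0.24), Kcnq1 (-0.15), Kcnh1 (-0.19), Kcnj2 (-0.20) and Kcnj9 (-0.15) were the others with lower means, and Kcnk6 (0.18), Kcnj12 (0.24) and Kcnd3 (0.20) had higher ones. The adjusted p of these 11 lay between 0.526 and 0.716. Over the family 24 of 63 genes were higher and 39 of 63 lower, beside 50.6% and 48.7% of all genes. The number with an unadjusted p under 0.05 was 4 without the 3 intermediate A/J arrays (Kcnk6, Kcnh5, Kcnh7 and Kcnh1; 6.35%, beside 4.29% of all genes) and 6 without the 5 arrays in doubt (9.52%, beside 5.78%). Without the 3 arrays the mean difference was 0.34 for Kcnk6 and -0.06 for Kcnq1, and without DBA/2J risperidone replicate 4 it was 0.13 for Kcnd3.

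Whether the drug effect differed between strains was tested by subtracting the effect in A/J from that in DBA/2J. By limma 0 of 63 channel genes and 0% of all genes passed, and 2 channel genes had an unadjusted p under 0.05 (3.17%, beside 8.14% of all genes). They were Kcnh7, given above, and Kcnd1 (0.30 ± 0.14 SE; adjusted p = 0.527). The next by p, besides Kcnh5, were Kcne1l (0.29), Kcnj9 (-0.28) and Kcnh2 (0.34). The median over channel genes was -0.08, beside 0.02 over all genes, and 22 of 63 were above 0 and 40 below, beside 54.6% and 45% of all genes.

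**Figure D4:**
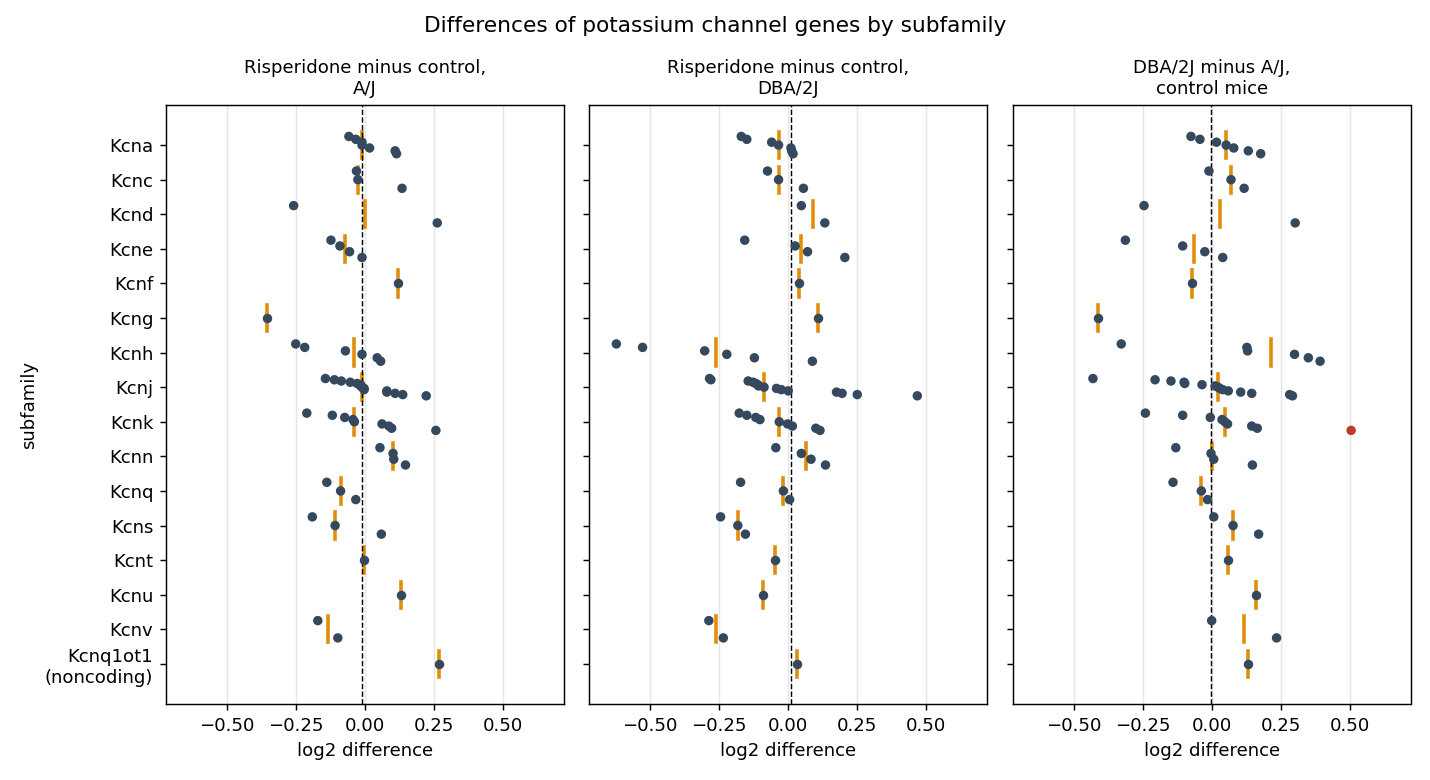
Log2 differences of the 63 genes by subfamily, for the drug comparison within each strain (risperidone minus control) and for the strain comparison of control mice (DBA/2J minus A/J); points are genes, orange bars subfamily medians, dashed lines the median of all genes, and red marks the gene called (Kcnk1). In DBA/2J the Kcnh and Kcnv medians are both -0.26 after risperidone. Between control mice the Kcnh median is 0.21 and the Kcnv median 0.12. All of these values use the DBA/2J control arrays.

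Most Kcna genes encode delayed rectifiers of axons and terminals, and Kcna4 encodes an A-type channel. Kcna1 was at 9.00, 8.98, 9.03 and 8.82 in A/J controls, 8.94, 8.82, 8.97 and 8.87 in A/J risperidone arrays, 8.90, 8.95, 8.96 and 8.85 in DBA/2J controls and 8.68, 8.98, 9.00 and 9.05 in DBA/2J risperidone arrays, so all groups overlapped. Over the 16 arrays Kcna2 lay at 8.38 to 8.79, Kcna3 at 5.69 to 6.24, Kcna4 at 5.49 to 6.17, Kcna5 at 3.80 to 4.46, Kcna6 at 6.81 to 7.37 and Kcna7 at 5.14 to 5.72. Kcna2, often found beside Kcna1 in axons, differed by -0.01 after risperidone in A/J and -0.15 in DBA/2J, and Kcna4 by -0.03 and -0.17. Without DBA/2J risperidone replicate 1 the DBA/2J difference of Kcna2 was -0.09, and without control replicate 3 that of Kcna4 was -0.08. In A/J the subfamily median was -0.01, while that of DBA/2J was -0.04.

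The Kcnc genes serve fast repetitive firing. Kcnc1 was at 9.07, 8.85, 9.29 and 8.74 in A/J controls, 8.88, 8.86, 9.00 and 9.09 in A/J risperidone arrays, 9.26, 9.12, 8.93 and 8.92 in DBA/2J controls and 8.79, 9.02, 8.86 and 9.42 in DBA/2J risperidone arrays, with SDs of 0.11 to 0.28 and differences of -0.03 and -0.04 after the drug. Kcnc2 lay at 8.73 to 9.29 and differed by -0.03 and 0.06, and Kcnc4 lay at 8.56 to 8.96 and differed by 0.14 and -0.07. None of the 3 passed, and the arrays of each group spread more widely than the groups differed for Kcnc1 and Kcnc2. The probe sets of Kcnc1 did not act alike between control mice. The one used differed by 0.07, and the others by -0.30, -0.335 and 0.045 (limma, adjusted p = 0.171, 0.244 and 0.814).

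The Kcne, Kcnf and Kcng genes encode subunits that alter other channels. Kcne4 was at 5.44, 5.23, 5.58 and 5.33 in A/J controls and 5.28, 5.13, 5.55 and 5.13 after risperidone, and at 5.31, 5.14, 5.21 and 5.50 in controls and 5.26, 4.95, 5.21 and 5.11 after risperidone in DBA/2J (-0.12 and -0.16). The DBA/2J difference of Kcne4 was -0.09 without control replicate 4. Kcne1l was at 4.22, 4.21, 4.22 and 4.16 in A/J and 4.12, 4.09, 4.23 and 4.30 in DBA/2J after risperidone. Kcne1 lay at 3.61 to 4.28 and Kcne3 at 2.44 to 2.87, both below the median level of all probe sets. Kcnf1 was at 6.89, 6.66, 6.60 and 6.87 in A/J controls, 6.95, 6.91, 6.90 and 6.74 in A/J risperidone arrays, 6.83, 6.76, 6.82 and 6.33 in DBA/2J controls and 6.81, 6.82, 6.62 and 6.65 in DBA/2J risperidone arrays. Kcng4 had the widest spread of any member: its DBA/2J risperidone arrays were at 3.87, 4.41, 4.62 and 5.69 (SD 0.76), beside 4.42, 4.63, 4.76 and 4.35 in DBA/2J controls, 4.93, 4.96, 5.26 and 4.65 in A/J controls and 4.23, 4.51, 4.85 and 4.80 in A/J risperidone arrays.

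Of the inward rectifiers that G proteins open, Kcnj3 lay at 7.05 to 7.77, Kcnj5 at 3.86 to 4.54 and Kcnj6 at 7.59 to 7.97, with DBA/2J drug differences of -0.11, -0.04 and -0.11. Kcnj4, a rectifier close to that of Kcnj2, lay at 5.99 to 6.27 and its drug difference was 0.08 in A/J while it was 0.00 in DBA/2J. The glial channel genes Kcnj10 and Kcnj16 lay at 9.04 to 9.72 and 6.39 to 6.96. Kcnj10, the main potassium channel of astrocytes, differed by -0.14 and -0.09, and its partner Kcnj16 by -0.01 and 0.20 (limma, adjusted p = 0.507 in DBA/2J). The A/J controls of Kcnj10 were at 9.22, 9.20, 9.72 and 9.06, so its A/J difference leans on the high replicate 3. The other probe set of Kcnj16 gave -0.21 in A/J and 0.16 in DBA/2J. Kcnj8 and Kcnj11, pore subunits of channels closed by ATP, lay at 4.87 to 5.66 and 6.89 to 7.39. Kcnj1 lay at 4.46 to 4.96, Kcnj14 at 5.38 to 5.95 and Kcnj15 at 2.83 to 3.67. Kcnj13 was at 6.10, 5.78, 5.18 and 5.44 in A/J controls and 5.74, 5.97, 5.90 and 5.33 in A/J risperidone arrays. Over the 15 genes the median was -0.01 in A/J and -0.09 in DBA/2J, with 10 lower in each.

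Of the other leak channel genes, Kcnk2 lay at 7.06 to 7.57, Kcnk3 at 6.40 to 6.83, Kcnk4 at 5.32 to 6.08, Kcnk7 at 5.51 to 6.07, Kcnk10 at 5.77 to 6.22 and Kcnk13 at 4.66 to 5.19. Their drug differences were within -0.12 and 0.09 in A/J and within -0.15 and 0.12 in DBA/2J. The other probe set of Kcnk4 differed by -0.24 in A/J and -0.30 in DBA/2J (adjusted p = 0.287 in DBA/2J), against -0.12 and 0.12 for the one used. Kcnk6 was at 4.30, 4.45, 4.30 and 4.47 in DBA/2J controls and 4.45, 4.44, 4.46 and 4.57 after risperidone.

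The Kcnn channels open with calcium and carry the current after a spike. Kcnn2 was at 7.70, 7.91, 8.03 and 8.06 in A/J controls, 8.02, 7.94, 8.08 and 8.07 in A/J risperidone arrays, 7.80, 7.85, 8.09 and 7.44 in DBA/2J controls and 7.72, 7.99, 8.03 and 7.98 in DBA/2J risperidone arrays, and its lowest array, 7.44, was DBA/2J control replicate 4. Kcnn1 lay at 5.89 to 6.47, Kcnn3 at 6.75 to 7.19 and Kcnn4 at 5.38 to 5.79. All 4 had higher means in A/J after risperidone, by 0.06 to 0.15, and 3 of 4 did in DBA/2J, and none passed. Kcnq3, a subunit of the M-current that muscarinic receptors suppress, was at 8.30, 8.21, 8.19 and 8.04 in A/J controls, 8.33, 8.08, 8.10 and 8.10 in A/J risperidone arrays, 8.15, 7.96, 8.20 and 7.87 in DBA/2J controls and 8.10, 8.05, 8.13 and 7.83 in DBA/2J risperidone arrays; its differences after the drug were -0.03 and -0.02. Kcnq5, its relative, lay at 7.62 to 8.31. Its 3 probe sets did not act alike in DBA/2J: the one used differed by 0.01 after risperidone, and another by -0.46 (adjusted p = 0.19).

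The 50 probe sets that did not stand for their gene were looked at apart, since they can lie on other parts of the transcripts. In DBA/2J after risperidone 14 of them, from 12 genes, had an unadjusted p under 0.05 (28%, beside 10.5% of 11801 such probe sets of all genes), with 13 lower and 1 higher, and 0 were called by limma. That number was 11 of 50 without DBA/2J control replicate 4 (beside 8.75% of all) and 7 of 50 without the 5 arrays in doubt (beside 6.81% of all). In A/J it was 3 (6%, beside 5.09%), and 0 were called. Between control mice it was 13 from 9 genes (26%, beside 17.8%), with 11 higher in DBA/2J and 3 called, those of Kcnd3, Kcnk1 and Kcnq1ot1 given above. For the difference of the drug effects it was 8 of 50 (16%, beside 8.62%), and 7 of 50 without DBA/2J control replicate 4 (beside 9.09% of all). That number also rests on the 3 intermediate A/J arrays, so it is no firm excess. For the mean of both strains it was 10 (20%, beside 6.79%) and between risperidone mice 2 (4%, beside 9.36%). Without the 3 intermediate arrays the A/J risperidone group is 1 array, so no such count is given for these. The drug comparison in DBA/2J and the strain comparison of control mice share the DBA/2J control arrays, and probe sets of 1 gene are not independent.

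Kcns1 lay at 5.52 to 6.19, Kcns3 at 5.25 to 5.81 and Kcnv2 at 2.64 to 3.71. Kcnt1, the sodium-activated channel gene, was at 6.81, 6.89, 6.70 and 6.73 in A/J controls, 6.82, 6.85, 6.66 and 6.79 in A/J risperidone arrays, 6.78, 6.98, 6.91 and 6.69 in DBA/2J controls and 6.72, 6.86, 6.76 and 6.83 in DBA/2J risperidone arrays, with SDs of 0.06 to 0.13. Kcnu1, the channel of sperm, was at 5.04, 4.65, 4.43 and 4.49 in A/J controls, 4.81, 4.81, 4.77 and 4.74 in A/J risperidone arrays, 4.77, 4.82, 4.74 and 4.92 in DBA/2J controls and 4.72, 4.63, 4.62 and 4.92 in DBA/2J risperidone arrays, below the median level of all probe sets on every array. Kcnd1 was at 5.38, 5.72, 5.71 and 5.90 in DBA/2J controls and 5.67, 5.75, 5.86 and 5.62 after risperidone.

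Genes for auxiliary subunits and related channels that the symbol rule leaves out were taken as a list of 28, of which 22 were measured. Between control mice 1 of 22 was called (limma; 3.46% of all genes were), and 17 of 22 were lower in DBA/2J (50.2% of all genes were). The called gene was Cntnap2, which encodes the axonal protein that gathers Kcna channels beside the node. It lay at 7.52, 7.54, 7.52 and 7.53 in A/J controls and 7.26, 7.16, 7.04 and 6.77 in DBA/2J controls, without overlap. The difference was -0.47 ± 0.10 (SE; adjusted p = 0.0089). With the cortex and thalamus markers as covariates, in a fit of only the 8 control arrays, and without the 3 intermediate A/J arrays, DBA/2J control replicate 4 and DBA/2J risperidone replicate 1, it was not called. The next by p were the Kcnd partner Dpp6 (-0.34; adjusted p = 0.0691), the Kcna beta subunits Kcnab1 (-0.23; 0.0787) and Kcnab2 (-0.24; 0.149) and the sulfonylurea receptor gene Abcc8 (-0.21; 0.318). The Abcc8 difference was -0.10 without DBA/2J control replicate 4, and 14 of the 22 were then lower.

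In DBA/2J 0 of 22 partner genes were called after risperidone by limma, and 3 had an unadjusted p under 0.05 (13.6%; 0.0526% of all genes were called and 10.2% had such a p). Kcnip2, a calcium-binding subunit of Kcnd channels, was at 9.14, 8.67, 9.07 and 8.76 in controls and 9.37, 9.23, 9.32 and 9.08 after risperidone, with overlap (0.34; adjusted p = 0.273). Kcnmb4, a subunit of large-conductance calcium-activated channels, was at 8.55, 8.30, 8.25 and 8.24 in controls and 8.15, 8.14, 8.08 and 8.03 after risperidone, and its groups did not overlap (-0.23; 0.374). Cntnap2 (0.23; 0.434), Ank3 (-0.13; 0.49) and Kcnab1 (0.14; 0.499) followed. The Cntnap2 difference was 0.13 without DBA/2J control replicate 4. In A/J 0 of 22 were called and 0 had an unadjusted p under 0.05 (beside 0% and 4.87% of all genes); the smallest belonged to the pacemaker channel gene Hcn2 (-0.26; adjusted p = 0.919), then Cntnap2 (-0.18), Kcnab1 (-0.12), Kcnab2 (-0.11) and Dpp6 (-0.11). For the mean of both strains, Kcnip2 (0.19), Kcnmb4 (-0.16), Hcn2 (-0.16), Kcnmb2 (0.13) and Ank3 (-0.07) led, with 2 of 22 at an unadjusted p under 0.05 (9.09%, beside 6.62% of all genes) and 0 called (beside 0.0409%). The Hcn2 mean difference was -0.10 without DBA/2J control replicate 4. For the difference of the drug effects, Cntnap2 (0.41; adjusted p = 0.424), Kcnab1 (0.25), Kcnip2 (0.30), Dpp6 (0.23) and Lrrc38 (-0.23) led, with 2 of 22 at an unadjusted p under 0.05 (9.09%, beside 8.14% of all genes) and 0 called (0% of all genes were). Dpp6 gave 0.10 without the 3 intermediate A/J arrays, and Lrrc38 gave -0.11 without DBA/2J risperidone replicate 4. Between risperidone mice Lrrc38, a subunit of large-conductance channels, was at -0.37 (adjusted p = 0.275), followed by Kcnip4 (-0.18), Ank3 (-0.10), Kcnmb2 (0.14) and Kcnip2 (0.13), with 1 of 22 at an unadjusted p under 0.05 (4.55%, beside 8.86% of all genes) and 0 called (beside 0.643%). The Kcnip4 difference was -0.30 without the 3 intermediate arrays.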

How the data were processed

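Striatal RNA of 16 mice was measured on Affymetrix perfect-match mouse arrays. The deposited log2 levels per probe set were made by the authors with RMA, per the submitters' processing notes; its version, scanning and filters are not given in the sources used here. The file lists 45141 probe sets, of which 104 are controls; the other 45037 were all tested, whatever their level, and of them 28898 name 1 gene, 551 several and 15588 none. All 63 members matched RefSeq (GRCm38.p6) by Entrez ID, and 34 have 1 probe set.

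Limma 3.58.1 in R 4.3.3 was used for a linear model of the 4 group means over the 16 arrays with moderated tests (eBayes), in 6 comparisons, with two-sided tests. SE is limma's, SD is over the 4 arrays of a group, and p-values measure only the spread between these mice; the number of arrays limits the precision. A level on the array depends on the probes as well as on the RNA, so levels of different probe sets were set side by side only to choose the highest per gene and per subfamily and against the median level. Probe positions were not checked for sequence variants of A/J or DBA/2J. In the strain comparisons, differences in probe binding and in RNA can therefore not be told apart. No arrays were identical (0 pairs). Same-numbered replicates were not treated as pairs: their deviations correlated above 0.1 in 1 or 2 of 4 pairs in each comparison. Their mean correlation was 0.025 to 0.074, against -0.025 to -0.008 for other pairs. Deviations from a group mean sum to 0, so the second range largely follows from the first and is no separate yardstick. A weak pairing cannot be told from none. Strain markers had a log2 difference of at least 1.5, a level of at least 7 and an adjusted p under 0.01 between control groups.

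Values in every array are given for members that were called, for the 6 members with the smallest p in each drug comparison and the interaction, for the member with the highest level in each subfamily, and for a few others; partner genes are the 5 with the smallest p per comparison. Members and lists were chosen with earlier results of these data known. The fit was tested on simulated data. Alternatives were normalization, a filter on low levels, variance model, array weights, a replicate block, only the arrays compared, each array left out, other probe set rules, arrays in doubt, the strain marker share as a covariate in the A/J drug comparison and, added after seeing the data, cortex and thalamus marker means as covariates. Promoters were searched with Python 3.11.15.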

Additional observations from a re-analysis of the deposited data

Results flagged for a closer look

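Among the genes whose values are given array by array, 112 groups of 4 arrays were examined for 1 array far from the other 3, and 11 held such an array; chance gives about 1 in 20 groups. Kcnk1 was at 8.49 in A/J risperidone replicate 3, with the other 3 at 8.71 to 8.75. Kcne1l was at 4.16 in A/J risperidone replicate 4, with the others at 4.21 to 4.22. Kcnq3 was at 8.33 in A/J risperidone replicate 1, with the others at 8.08 to 8.10. Kcnq1ot1 was at 7.78 in A/J risperidone replicate 4 (others 7.43 to 7.48) and at 7.70 in DBA/2J risperidone replicate 3 (others 7.32 to 7.36). DBA/2J control replicate 4 stood apart in 3 genes: Kcnh2 at 5.82 (others 6.23 to 6.30), Kcnf1 at 6.33 (others 6.76 to 6.83) and Kcns2 at 7.85 (others 7.46 to 7.49). In DBA/2J risperidone mice, Kcnk6 was at 4.57 in replicate 4 (others 4.44 to 4.46), Kcnn2 at 7.72 in replicate 1 (others 7.98 to 8.03) and Kcnj13 at 6.42 in replicate 1 (others 5.31 to 5.49).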

How the results depend on the processing

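The count of channel genes called differed from the main setting between control mice alone, where 1 was called. It was 2 with array weights (Kcnj9 and Kcnk1) and 2 with the replicate number as a block (Kcnh3 and Kcnk1), though the numbers are not known to pair the samples. It was 2 with probe sets averaged per gene (Kcnk1 and Kcnq1ot1) and 3 where any probe set counted (Kcnd3, Kcnk1 and Kcnq1ot1). It was 2 without DBA/2J control array 4 (Kcnj9 and Kcnk1) and 0 with cortex and thalamus markers as covariates; leaving out each array in turn gave 1 to 2. Kcnk1 passed in 27 of 28 alternatives. The count of partner genes called there, 1, was 3 with only the upper probe sets by level (above the median), 2 with trend and robust options, 2 with array weights, 2 for any probe set, and 0 with only the 8 arrays compared, without 5 arrays in doubt or with the covariates; leaving out each array gave 1 to 2. The cause was not tested. In the other 5 comparisons both counts were 0 in all alternatives run. No value changed sign among those called, and 988 values of single genes kept their side of the threshold, while 4 came to pass and 1 ceased to. Signal near the median level limits what can be seen for the 22 genes below it.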
